A study of Mus musculus with 24 samples.

Results

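This account follows 10 genes of the mouse hippocampus, Mospd3, Ifrd2, Ighm, Serpina3n, Serpina3h, Sod3, Vax1, Ret, Muc3a and Lgi3, out of 51733 genes in the deposited count table. They were chosen because their levels differed between knock-in and control mice in these libraries, so each genotype value below is a description and carries no test. The table lists them in capitals as MOSPD3, IFRD2, IGHM, SERPINA3N, SERPINA3H, SOD3, VAX1, RET, MUC3A and LGI3. All 10 were found by symbol, and all 10 passed the filter on low counts in both fractions. The comparisons of training state and of fraction were not used in the choice and are tested.

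Both fractions came from adult C57BL/6 males of 2 to 3 months. The cKI mice, eIF2αA/A;fTg+ with CaMKIIα-Cre, make eIF2α with alanine in place of its phosphorylated serine, and carry a transgene for the normal protein that is floxed, so that Cre deletes it. Control mice are the standard CaMKIIα-Cre+ line, and the labels do not give their eIF2α alleles. Cre under the CaMKIIα promoter acts mainly in excitatory forebrain neurons, so the transgene is deleted mainly in those cells. By the genotype label, the other cells of cKI mice have the alanine alleles too and keep the transgene. Both hippocampi of a mouse were homogenised whole. Ribosomes with a tagged protein (RiboTag) were pulled down with an anti-HA antibody to give the IP library, and the remaining lysate gave the Input library. Mice were taken 1 h after fear conditioning or naive, and the labels describe a weak and a strong protocol without saying which was used here. With 12 mice and 24 libraries, each of 8 groups (genotype, training state and fraction) had 3 libraries from separate mice.

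Phosphorylation of eIF2α slows general translation and favours a small set of mRNAs, and in the hippocampus it is known as a brake on long-term memory. The 10 genes are no pathway. Mospd3 codes for a membrane protein of the endoplasmic reticulum with a major sperm protein domain, and Ifrd2 for a factor found bound to translationally idle ribosomes, known from rabbit reticulocytes. Ighm is the constant region of the IgM heavy chain. Serpina3n codes for a secreted serine protease inhibitor that is known as a marker of reactive astrocytes, and Serpina3h, its neighbour, is a transcribed pseudogene in RefSeq. Sod3 is the extracellular superoxide dismutase, Vax1 a homeobox factor of the ventral forebrain, Ret the receptor tyrosine kinase of the GDNF family ligands, Muc3a a membrane mucin, and Lgi3 a secreted protein with leucine-rich repeats.

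Library totals were 30.6 to 43.5 M counts in IP and 28.8 to 37.7 M in Input. Levels are given as CPM, the count of a gene divided by the TMM-normalised size of its library, and the genes are not compared with each other in level. The tagged fraction carried its label: all 8 excitatory neuron markers were higher in IP than in Input (median log2 fold change 1.06), and all 8 astrocyte markers were lower (median -3.21). Eif2s1, the gene of eIF2α, was measured as a sum of mutant, normal and transgene copies, so it does not check the genotype. Its level was 35.1 to 40.8 CPM in cKI inputs and 29.9 to 33.4 CPM in Control inputs. One input, naive cKI replicate 3, differed from its group by over 4-fold in 65 genes, against 0 to 18 genes for any other library. Without it the naive Input log2 fold changes of cKI over Control were -1.47 for Mospd3, 1.19 for Ifrd2, 1.77 for Ighm, 0.41 for Serpina3n, 2.02 for Serpina3h, -1.35 for Sod3, -0.57 for Vax1, -0.67 for Ret, -0.74 for Muc3a and -0.16 for Lgi3, and the values with it are given at each gene. Sequencing lane ran with genotype. If the number after the flow cell in the sample descriptions is read as the sequencing lane, all 6 cKI inputs were on lane 4, while 4 of 6 Control inputs were on lane 5. In IP 4 of 6 cKI libraries were on lane 5, while all 6 Control libraries were on lane 6. Within-lane values are therefore given where a lane held both genotypes, which was the case for naive mice in Input (lane 4) and for mice at 1 h in IP (lane 6).

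Mospd3 (ENSMUST00000037620) was lower in every cKI library than in every Control library of the same fraction. In IP at 1 h it stood at 11.2, 11.6 and 10.6 CPM in cKI mice and 20.9, 28.3 and 23.4 CPM in Control mice. In naive mice it was 12.9, 12.3 and 12.8 CPM in cKI IP and 25.9, 24.9 and 30.7 CPM in Control IP. The highest cKI library thus lay well below the lowest Control library, and the cKI mice were also much closer to each other. On the log2 scale, cKI over Control was -1.11 at 1 h (SE 0.11) and -1.10 in naive mice (SE 0.11).

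In Input the same gene had 8.21, 7.99 and 9.22 CPM in cKI mice at 1 h, against 11.6, 20.0 and 21.5 CPM in Control mice. In naive inputs it had 8.89, 7.90 and 8.38 CPM in cKI mice and 20.0, 28.7 and 22.6 CPM in Control mice. Control replicate 1 at 1 h was the nearest to the cKI range in Input, and that mouse was also the lowest Control mouse in IP. Input gave a log2 fold change of -1.05 at 1 h (SE 0.20) and -1.47 in naive mice (SE 0.20). Within lane it was -1.11 in IP at 1 h and -1.50 in naive Input.

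Ifrd2 (ENSMUST00000010192) went the other way and was higher in every cKI library. In IP it had 7.52, 8.09 and 7.06 CPM in cKI mice at 1 h, against 4.13, 2.30 and 4.27 CPM in Control mice. In naive IP it had 8.06, 8.14 and 8.11 CPM in cKI mice and 2.12, 1.90 and 1.42 CPM in Control mice. The 3 naive cKI values were almost equal, whereas Control replicates 1 and 3 at 1 h lay between the naive Control and the cKI levels. In log2 terms cKI over Control was 1.09 at 1 h (SE 0.20) and 2.15 in naive mice (SE 0.21).

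The Input libraries showed the same order for Ifrd2, with smaller gaps. At 1 h its level was 5.41, 6.27 and 6.71 CPM in cKI mice and 4.75, 2.36 and 3.85 CPM in Control mice. In naive inputs its level was 5.72, 5.90 and 7.13 CPM in cKI mice and 2.67, 2.58 and 2.52 CPM in Control mice. The 2 Control mice at 1 h that were intermediate in IP, replicates 1 and 3, were also the highest Control mice in Input. For Input the log2 fold change was 0.77 at 1 h (SE 0.19) and 1.30 in naive mice (SE 0.19), and within lane 4 it was 1.28 in naive Input. Within lane 6 it was 1.10 in IP at 1 h.

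**Figure D1:**
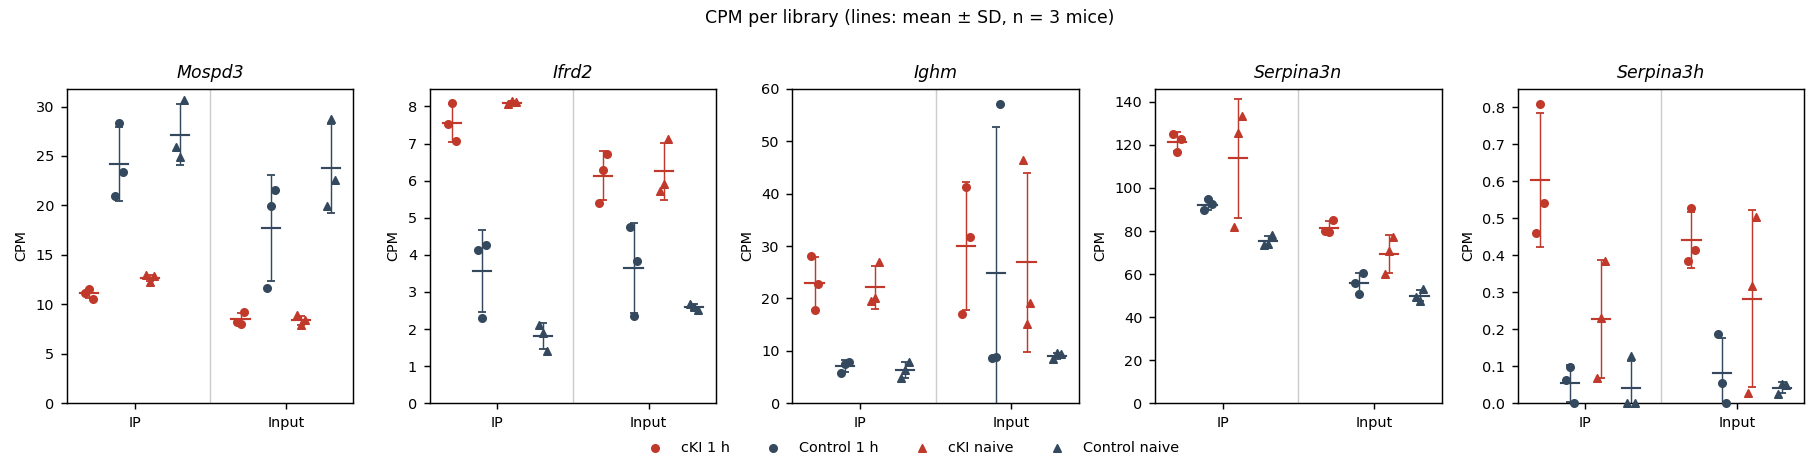
CPM per library (vertical axis, linear) of Mospd3, Ifrd2, Ighm, Serpina3n and Serpina3h in IP and Input; points are mice, circles 1 h and triangles naive, and lines are the mean ± SD of 3 mice. Mospd3 and Ifrd2 separate cKI from Control in both fractions, Ighm does so in IP, and 1 Control input at 1 h has the highest Ighm value of all libraries (57.0 CPM), so that the error bar of its group reaches below the axis.

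Promoter sequences are shown for Mospd3 and Ifrd2, which, like Muc3a, separated the genotypes in both fractions and both training states, with Mospd3 lower and Ifrd2 higher in cKI mice. Each is the stretch of 250 bases before a RefSeq transcript start (GRCm38.p6), 5′ to 3′ on the gene's strand. Mospd3 has a second start whose window is not printed. Capitals mark CCAAT on either strand, so ATTGG is a match on the other strand. Mospd3 lies at chr5:137601060-137601309 on the minus strand, and Ifrd2 at chr9:107587468-107587717 on the plus strand.
Mospd3: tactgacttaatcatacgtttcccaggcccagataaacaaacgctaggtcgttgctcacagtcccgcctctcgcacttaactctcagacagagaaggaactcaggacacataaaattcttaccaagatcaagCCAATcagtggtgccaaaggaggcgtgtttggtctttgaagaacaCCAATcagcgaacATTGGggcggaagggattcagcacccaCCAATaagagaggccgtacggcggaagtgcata
Ifrd2: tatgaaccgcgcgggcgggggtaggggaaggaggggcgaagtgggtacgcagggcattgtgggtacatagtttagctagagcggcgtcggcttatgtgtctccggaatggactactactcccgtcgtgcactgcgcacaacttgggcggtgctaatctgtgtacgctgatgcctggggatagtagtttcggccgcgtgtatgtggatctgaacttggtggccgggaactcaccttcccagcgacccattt
The printed Mospd3 window held 4 matches, the window of its second start 1 and the Ifrd2 window 0. Of 32851 windows of this length, 33.8% held at least 1 match and 0.84% held 4 or more. The letters TGATGNAA and TGACGTCA were in none of these windows of Mospd3 and Ifrd2. These are matches of letters and were not measured as sites.

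Ighm (ENSMUST00000177715) was higher in all cKI IP libraries than in all Control IP libraries. In IP it had 28.0, 17.9 and 22.7 CPM in cKI mice at 1 h, against 5.84, 7.56 and 7.87 CPM in Control mice. In naive IP it had 19.5, 20.0 and 26.9 CPM in cKI mice and 4.90, 6.42 and 7.80 CPM in Control mice. The lowest cKI library, at 17.9 CPM, lay well above the highest Control library, at 7.87 CPM. This gave a log2 fold change of 1.70 at 1 h (SE 0.20) and 1.80 in naive mice (SE 0.20), and within lane 6 it was 1.53 at 1 h.

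In Input the Ighm values were far more spread. They were 17.0, 41.2 and 31.7 CPM in cKI mice at 1 h and 8.62, 8.88 and 57.0 CPM in Control mice. In naive inputs they were 46.4, 15.1 and 19.1 CPM in cKI mice and 8.47, 9.55 and 9.34 CPM in Control mice. All Control inputs but replicate 3 at 1 h lay below all cKI inputs, and that library was the highest of all. Across inputs the log2 fold change was 0.28 at 1 h (SE 0.77) and 1.58 in naive mice (SE 0.82). Without Control replicate 3 the difference at 1 h was 1.79. Within lane 4 the naive difference was 1.61.

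Among transcripts of antibody-producing cells, Igkc and Jchain had their 4 highest values in the inputs highest in Ighm, and Igha and Cd74 did not. Igkc, the constant region of the kappa light chain, had 17.4 CPM in the Control input with 57.0 CPM of Ighm, and 0.03 to 1.39 CPM in the other Control inputs. In cKI inputs at 1 h it had 0.15, 10.3 and 13.9 CPM, and in naive cKI inputs 16.1, 3.52 and 4.38 CPM, so the 4 inputs highest in Ighm were also the 4 highest in Igkc. The joining chain Jchain had its 4 highest values, 4.39 to 9.82 CPM, in the same inputs. Cd79a was highest in naive cKI replicate 1, Control replicate 3 at 1 h and cKI replicate 2 at 1 h. It had 0.33, 0.31 and 0.28 CPM there, from 12, 12 and 10 counts. The cKI input with the least Igkc, replicate 1 at 1 h, still had 17.0 CPM of Ighm. Igha, the IgA heavy chain, was highest, at 19.6 CPM, in cKI replicate 3 at 1 h, which had 31.7 CPM of Ighm. Naive cKI replicates 1 and 3 had 5.06 and 5.51 CPM of Igha, with 46.4 and 19.1 CPM of Ighm. In cKI replicate 2 at 1 h Igha had 2.94 CPM, with 41.2 CPM of Ighm. Among Control inputs it had 1.3 CPM in the library with 57.0 CPM of Ighm. It had 3.1 CPM in naive Control replicate 3, which had 9.34 CPM of Ighm. Cd74, the invariant chain of MHC class II, was highest, at 40.7 CPM, in naive cKI replicate 2, the cKI input with the least Ighm (15.1 CPM).

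In IP Igkc and Jchain were near 0 CPM while Ighm was not. Igkc was at 0 to 0.67 CPM in all IP libraries and Jchain at 0 to 0.54 CPM, and their log2 fold changes of IP over Input were -4.82 (edgeR adjusted p = 0.000498) and -4.06 (edgeR adjusted p = 0.000134). Cd74, the most abundant companion on the list, had -4.13 (edgeR adjusted p = 3.96e-10). For Ighm the log2 fold change was -0.75 (SE 0.30, edgeR adjusted p = 0.0277). Of the 12 companions tested between fractions, edgeR called 6 lower in IP, where 43.1% of all genes were, and 3 higher (Pax5, Blnk and Vpreb3), where 42.8% were. Blnk, an adaptor of B cell receptor signalling, had 4.54 to 9.06 CPM in IP and 3.72 to 5.09 CPM in Input. Ighg2c, an IgG heavy chain, had 2.87, 1.28 and 0.089 CPM in naive cKI IP libraries. At 1 h cKI IP libraries had 0.066, 0.031 and 0.54 CPM of it, and Control IP libraries had at most 0.11 CPM. Of 21 immunoglobulin and B cell genes beside Ighm, 8 passed the filter in IP and 10 in Input, and edgeR called 0 of them by genotype in either fraction. Unadjusted p was under 0.05 for 2 of them in IP and 4 in Input, and DESeq2 called 0 and 1. Their median log2 fold change over both training states was 0.89 in IP, beside 0.0036 for all genes, and 1.06 in Input, beside 0.0038. Their summed level, Ighm left out, was 7.2 to 13.0 CPM in cKI IP libraries and 5.9 to 12.1 CPM in Control IP libraries. In Input it was 12.3 to 76.0 CPM in cKI mice and 10.7 to 63.6 CPM in Control mice. Much of the sum in IP was Blnk alone, at 5.28 to 7.50 CPM in cKI and 4.54 to 9.06 CPM in Control libraries. Cd74, a large part of the sum in Input, had 22.3 to 40.7 CPM in naive cKI and 5.47 to 9.18 CPM in naive Control inputs. At 1 h its ranges overlapped, at 7.15 to 23.7 CPM in cKI and 9.79 to 26.8 CPM in Control inputs. Of the defining markers of B cells, Ms4a1 was at 0 to 0.36 CPM in cKI libraries and 0 to 0.026 CPM in Control libraries, and Cd79a was at 0 to 0.33 CPM in cKI libraries and 0.028 to 0.31 CPM in Control libraries. Fewer cells of a type and less RNA per cell cannot be told apart in such bulk libraries, and the part of antibody-producing cells in the Ighm values was not tested.

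**Figure D2:**
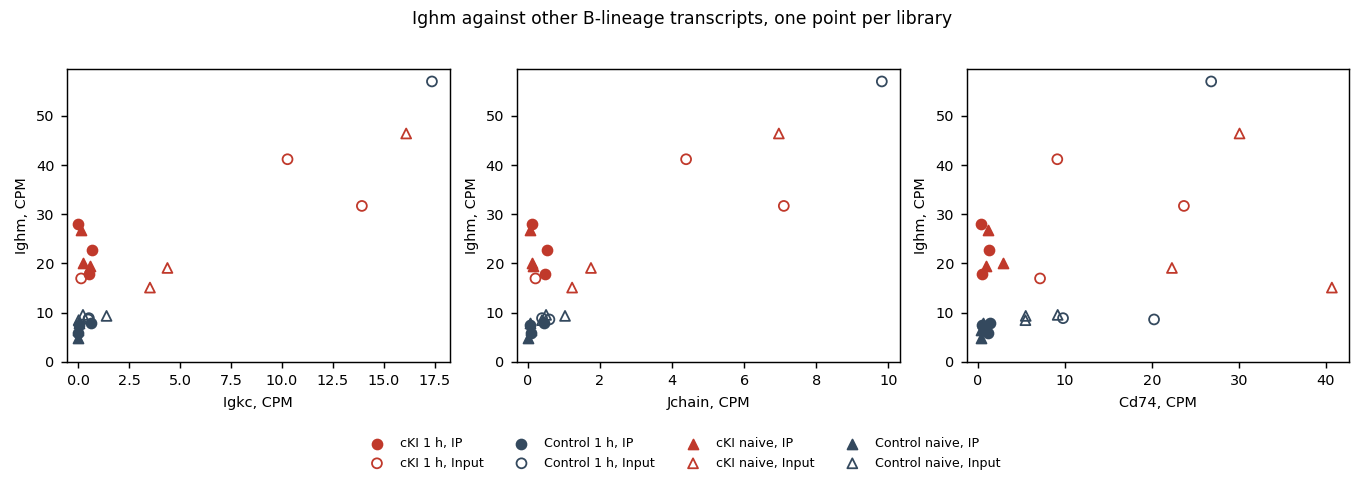
Ighm (vertical axis, CPM) against Igkc, Jchain and Cd74 (horizontal axes, CPM), 1 point per library, filled for IP and open for Input. In IP the cKI libraries sit at 17.9 to 28.0 CPM of Ighm with hardly any Igkc, whereas in Input the highest Ighm values come with high Igkc and Jchain.

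Serpina3n (ENSMUST00000021506) was higher in cKI mice in both fractions and both training states. In IP at 1 h it had 125, 117 and 123 CPM in cKI mice, against 89.6, 94.7 and 92.6 CPM in Control mice. In naive IP it had 82.0, 125 and 134 CPM in cKI mice and 73.6, 73.9 and 78.0 CPM in Control mice. Replicate 1 of the naive cKI mice stood close to the Control range, and in Input the same mouse was again the lowest of the cKI mice. In IP the log2 fold change was 0.41 at 1 h (SE 0.13) and 0.60 in naive mice (SE 0.13).

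In Input Serpina3n had 80.2, 79.7 and 84.9 CPM in cKI mice at 1 h, against 55.9, 50.9 and 60.6 CPM in Control mice. Naive inputs had 60.1, 70.5 and 77.3 CPM in cKI mice and 49.3, 47.7 and 53.1 CPM in Control mice. Genotypes did not overlap within a training state. In Input the log2 fold change was 0.57 at 1 h (SE 0.09) and 0.50 in naive mice (SE 0.09). Within lane it was 0.39 in IP at 1 h and 0.55 in naive Input. Of 12 other reactive astrocyte markers, 1 was called by genotype in Input, where 3.15% of all genes were, the small heat shock protein gene Hspb1, which fell to 1.44 ± 0.174 CPM in cKI inputs, against 3.23 ± 0.900 CPM in Control inputs (SD, n = 6 each, log2 fold change -1.13, SE 0.15, edgeR adjusted p = 0.00171). Their summed level overlapped, at 82.0 to 106 CPM in cKI inputs and 75.8 to 111 CPM in Control inputs.

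Serpina3h (ENSMUST00000049922) is read from few counts. In IP there were 14, 26 and 17 counts in cKI mice at 1 h and 2, 3 and 0 counts in Control mice. In naive IP there were 2, 8 and 13 counts in cKI mice and 0, 5 and 0 counts in Control mice. Input gave 13, 19 and 15 counts in cKI mice at 1 h, against 6, 2 and 0 counts in Control mice, and in naive mice 1, 13 and 17 counts in cKI against 1, 2 and 2 counts in Control. The genotypes did not overlap at 1 h in either fraction, and in naive mice replicate 1 of the cKI group fell among the Control mice in both. This is the mouse with the lowest cKI level of Serpina3n. Over both training states, with 6 mice per genotype, the ratio of mean CPM, cKI over Control, was 8.67 in IP, from 80 cKI counts and 10 Control counts, and 5.87 in Input, from 78 cKI counts and 13 Control counts. The fitted log2 fold change in naive Input was 2.66 (SE 0.91), and within lane the fits gave 3.52 in IP at 1 h and 2.77 in naive Input. A fitted fold of so few counts depends on the prior count.

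In the Serpina clade 20 other genes were listed, of which 1 passed the filter in IP and 2 in Input, and edgeR called 0 by genotype, as did DESeq2. Unadjusted p was under 0.05 for 0 of them in IP and 1 in Input. The most abundant of them, Serpina3g, had 0.863 ± 0.236 CPM in cKI inputs and 0.983 ± 0.170 CPM in Control inputs (SD, n = 6 each). Copies of this cluster are alike in sequence, so reads may be split between Serpina3n, Serpina3h and the others, and how the counting treated them is not given in the sources used here.

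Muc3a (ENSMUST00000179412) separated the genotypes completely in both fractions, with lower values in cKI mice. In IP it had 0.43, 0.62 and 0.51 CPM in cKI mice at 1 h and 1.44, 1.61 and 1.82 CPM in Control mice. In naive IP it had 0.44, 0.29 and 0.24 CPM in cKI mice and 1.44, 1.80 and 2.23 CPM in Control mice. No cKI library reached the lowest Control library. Counts were few, with 49 over the 3 cKI IP libraries at 1 h and 31 over the 3 naive ones. The Control IP libraries had 144 and 191 counts. The log2 fold change was -1.62 at 1 h (SE 0.26) and -2.50 in naive mice (SE 0.27). In Input the levels were 1.27 to 1.60 CPM in cKI mice and 1.90 to 2.93 CPM in Control mice, with log2 fold changes of -0.74 at 1 h (SE 0.18) and -0.81 in naive mice (SE 0.17). Within lane these were -1.49 in IP at 1 h and -0.83 in naive Input.

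Ret (ENSMUST00000032201) was lower in cKI mice, most of all in naive ones. In IP it had 4.52, 3.20 and 4.07 CPM in cKI mice at 1 h and 5.72, 3.45 and 6.31 CPM in Control mice, which overlap. In naive IP it had 2.94, 2.81 and 2.67 CPM in cKI mice and 6.08, 6.93 and 5.29 CPM in Control mice, which do not. The log2 fold change in IP was -0.39 at 1 h (SE 0.21) and -1.12 in naive mice (SE 0.21). In Input the ranges were 2.49 to 3.42 CPM in cKI mice and 3.47 to 5.23 CPM in Control mice, so they just missed each other. The log2 fold change in Input was -0.25 at 1 h (SE 0.15) and -0.75 in naive mice (SE 0.15). Within lane it was -0.49 in IP at 1 h and -0.71 in naive Input.

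Among the 10 listed ligands and co-receptors of Ret, 5 passed the filter in each fraction. By genotype edgeR called 1 of them in Input (3.15% of all genes were called) and 0 in IP, where 2 had an unadjusted p under 0.05 and DESeq2 called 0. Nrtn, the ligand neurturin, fell to 1.22 ± 0.163 CPM in cKI inputs, against 1.95 ± 0.442 CPM in Control inputs (SD, n = 6 each), or -0.64 on the log2 scale (SE 0.15, edgeR adjusted p = 0.0362). Gfra1, the co-receptor of GDNF and the most abundant of the list, had 61.0 ± 2.41 CPM in cKI inputs and 66.6 ± 4.33 CPM in Control inputs (log2 fold change -0.10, SE 0.05, edgeR adjusted p = 0.229).

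Vax1 (ENSMUST00000172821) also had few counts. In IP there were 6, 6 and 5 counts in cKI mice at 1 h and 21, 4 and 16 in Control mice. In naive IP there were 3, 2 and 0 counts in cKI mice and 19, 23 and 10 in Control mice. The naive groups did not overlap, and at 1 h Control replicate 2 was below all 3 cKI mice. The log2 fold change was -1.32 at 1 h (SE 0.58) and -3.16 in naive mice (SE 0.71). In Input the groups overlapped in both training states, with 0.17 to 0.50 CPM in cKI mice and 0.39 to 0.59 CPM in Control mice. The log2 fold change in Input was -0.26 at 1 h (SE 0.36) and -0.77 in naive mice (SE 0.37). Within lane the values were -1.38 in IP at 1 h and -0.77 in naive Input.

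Of 12 other forebrain homeobox genes, 8 passed the filter in IP and 9 in Input. By genotype edgeR called 1 of the 9 lower in Input (2% of all genes were lower) and 0 of the 8 in IP, where 1 had an unadjusted p under 0.05 and DESeq2 called 0. The called gene was Dlx5, a factor of inhibitory neuron development, with 3.02 ± 0.286 CPM in cKI inputs and 4.15 ± 0.503 CPM in Control inputs (SD, n = 6 each), or -0.43 on the log2 scale (SE 0.10, edgeR adjusted p = 0.0349). Of 8 inhibitory neuron markers, 2 were called lower in cKI inputs, where 2% of all genes were, and 6 were not called. The called ones were the vesicular GABA transporter Slc32a1 (log2 fold change -0.22, SE 0.05, edgeR adjusted p = 0.0333) and parvalbumin, Pvalb (-0.27, SE 0.05, edgeR adjusted p = 0.017). The summed level of the 8 was 708 to 775 CPM in cKI inputs and 780 to 872 CPM in Control inputs. The part of these cells in the Vax1 and Dlx5 values was not tested.

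Sod3 (ENSMUST00000101208) was lower in cKI inputs, and in IP the genotypes overlapped. In Input at 1 h it had 3.16, 4.14 and 5.25 CPM in cKI mice and 7.90, 7.13 and 4.63 CPM in Control mice. In naive inputs it had 4.54, 3.94 and 3.40 CPM in cKI mice and 9.45, 11.7 and 12.0 CPM in Control mice. Naive mice did not overlap, whereas at 1 h Control replicate 3 lay within the cKI range. The log2 fold change in Input was -0.62 at 1 h (SE 0.21) and -1.44 in naive mice (SE 0.21), and within lane 4 it was -1.37 in naive mice.

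In IP Sod3 was at 0.09 to 1.32 CPM in cKI mice and 0.26 to 1.50 CPM in Control mice, with a log2 fold change over both training states of -0.10 (SE 0.48). Sequencing lane moved with it there. The 4 cKI libraries on lane 5 had 0.98 to 1.32 CPM. The 2 on lane 6 had 0.09 and 0.38 CPM, from 3 and 12 counts. Both of these were from mice at 1 h, while 3 of the 4 on lane 5 were naive, so lane ran with training state too. The lane-adjusted value was -1.98 on the log2 scale (SE 0.73). At 1 h the IP value was -0.51 over both lanes and -1.81 within lane 6. Among 14 other genes of superoxide and peroxide defence, edgeR called 1 by genotype in Input, Prdx5 (3.15% of all genes were called), and 0 in IP, where 6 had an unadjusted p under 0.05 and DESeq2 called 1. This peroxiredoxin had 73.2 ± 3.69 CPM in cKI inputs and 86.3 ± 10.1 CPM in Control inputs (SD, n = 6 each, log2 fold change -0.21, SE 0.05, edgeR adjusted p = 0.049). The most abundant, Prdx6, was not called (log2 fold change -0.08, SE 0.04, edgeR adjusted p = 0.267).

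Lgi3 (ENSMUST00000047331) was higher in cKI mice in IP and not in Input. In IP it had 98.3, 93.2 and 96.5 CPM in cKI mice at 1 h and 81.0, 87.6 and 77.9 CPM in Control mice. In naive IP it had 113, 116 and 105 CPM in cKI mice and 95.9, 86.5 and 84.9 CPM in Control mice. Within each training state the genotypes did not overlap, and the log2 fold change was 0.23 at 1 h (SE 0.07) and 0.32 in naive mice (SE 0.07). In Input it had 101, 101 and 101 CPM in cKI mice at 1 h and 93.9, 101 and 98.0 CPM in Control mice. Naive inputs had 113, 104 and 106 CPM in cKI mice and 121, 135 and 116 CPM in Control mice, which did not overlap, with cKI lower. The log2 fold change in Input was 0.06 at 1 h (SE 0.05) and -0.17 in naive mice (SE 0.05). Within lane it was 0.22 in IP at 1 h and -0.21 in naive Input.

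**Figure D3:**
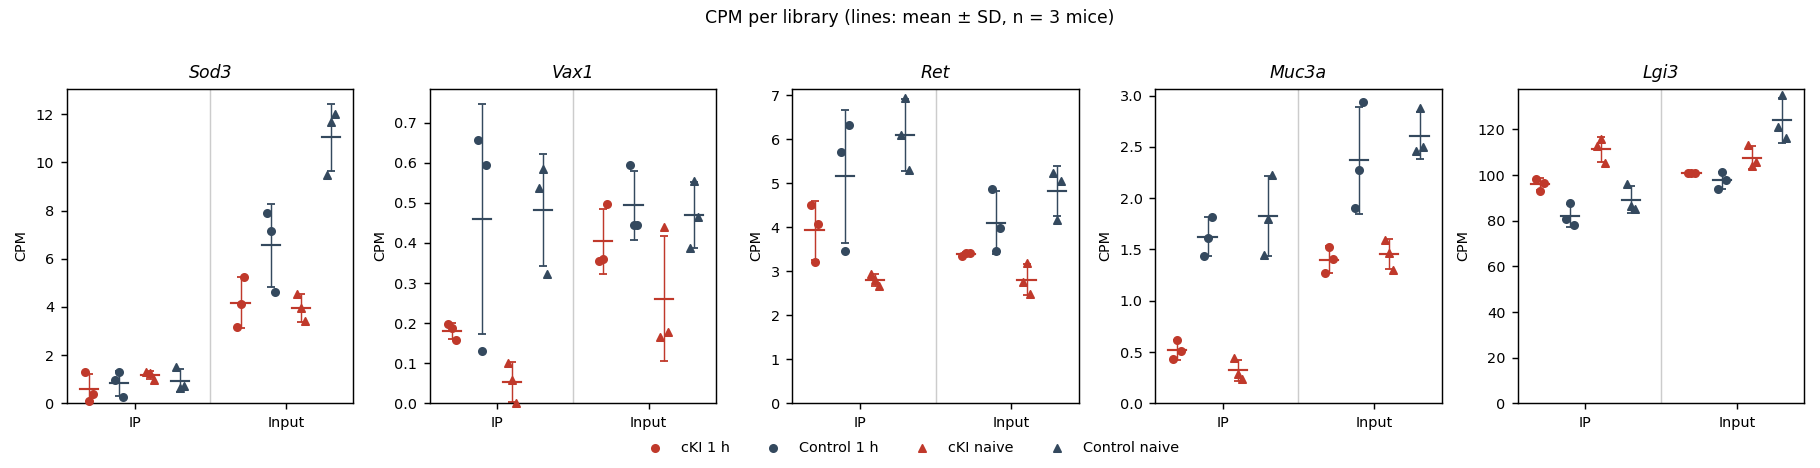
CPM per library (vertical axis, linear) of Sod3, Vax1, Ret, Muc3a and Lgi3 in IP and Input; points are mice, circles 1 h and triangles naive, and lines are the mean ± SD of 3 mice. Muc3a separates the genotypes in both fractions, Sod3 is low in all IP libraries, and Lgi3 is higher in cKI mice in IP alone.

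Over both training states, 5 of the 10 genes were higher in cKI IP libraries at an edgeR adjusted p under 0.05, where 0.656% of all genes were, and 4 were lower, where 1.04% were (1.69% in either direction). In Input 3 were higher (background 1.15%) and 4 lower (2%), where 3.15% of all genes passed in all. In IP at 1 h 1 was higher (0.0394%) and 2 lower (0.0197%, with 0.0591% in all), and in naive IP 4 were higher (1.2%) and 4 lower (2.5%, with 3.7% in all). In Input at 1 h 1 was higher (0.0696%) and 0 lower (0.197%, with 0.267% in all), and in naive Input 2 were higher (0.302%) and 4 lower (0.557%, with 0.859% in all). The genes were picked on these contrasts, so nothing is read from the counts. With lane as a covariate, edgeR called 0 higher and 1 lower (Mospd3) over both training states in IP, where 3 of 15238 genes were called. In Input it called 0, where 18 of 17232 genes were called. Unadjusted p with lane as a covariate was under 0.05 for all 10 in IP and 7 in Input, and nothing is read from that either.

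The genotypes did not overlap over both training states for Mospd3, Ifrd2, Ighm and Muc3a in IP, where 1.67% of all genes did not, and for Mospd3, Ifrd2, Ret and Muc3a in Input, where 3.54% did not. In IP 7 of the 10 genes did not overlap at 1 h (background 11.3%) and 8 in naive mice (26.7%). In Input 6 did not overlap at 1 h (background 22.8%) and 8 in naive mice (20.1%).

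**Figure D4:**
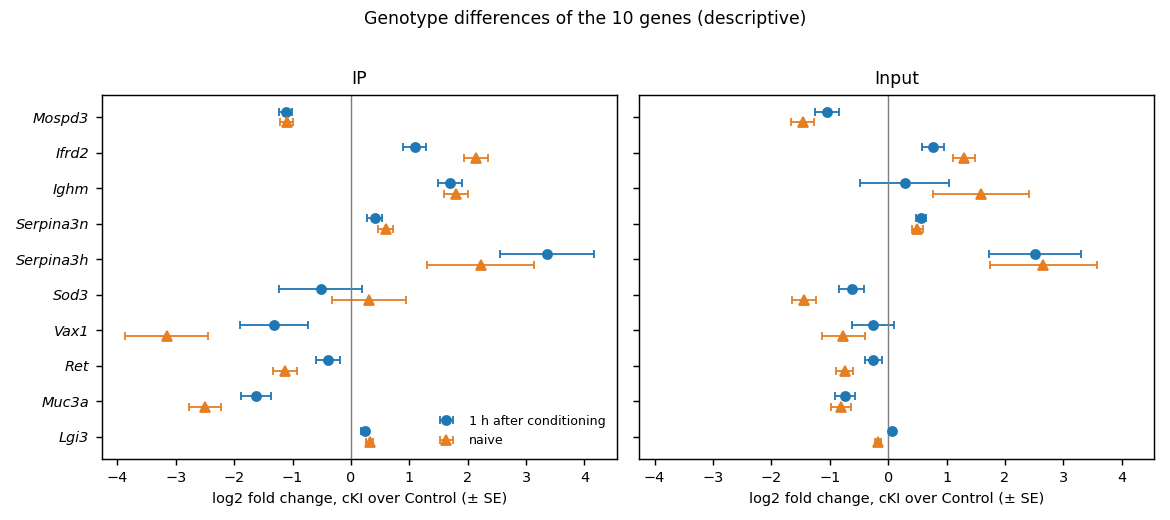
Log2 fold change of cKI over Control with its standard error (horizontal axis) for the 10 genes in IP and in Input, circles for 1 h and triangles for naive mice. In IP the naive values of Ifrd2 (2.15), Vax1 (-3.16), Ret (-1.12) and Muc3a (-2.50) lie farther from 0 than those at 1 h, while Mospd3 has -1.11 at 1 h and -1.10 in naive mice.

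Among the relatives of Mospd3, Ifrd2, Muc3a and Lgi3, none passed the edgeR threshold by genotype. Of 4 other genes with a major sperm protein domain, edgeR called 0 in either fraction, with 0 in IP and 1 in Input at an unadjusted p under 0.05, and DESeq2 called 0 and 1. Vapb, the most abundant, had 192 ± 8.25 CPM in cKI IP libraries and 195 ± 3.40 CPM in Control IP libraries (SD, n = 6 each). Of 6 genes set beside Ifrd2, its paralog Ifrd1 and factors that occupy idle ribosomes or act on elongation, edgeR called 0, with 1 in each fraction at an unadjusted p under 0.05, and DESeq2 called 1 in IP. Ifrd1 had 46.3 ± 5.46 CPM in cKI IP libraries and 38.8 ± 2.40 CPM in Control IP libraries (log2 fold change 0.25, SE 0.06, edgeR adjusted p = 0.0501). The elongation factor Eef2, the most abundant of these, had 833 ± 33.2 CPM in cKI IP libraries and 840 ± 20.2 CPM in Control IP libraries.

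Of 11 other mucins, 1 passed the filter in IP and 2 in Input, and neither edgeR nor DESeq2 called any by genotype, with 0 and 1 at an unadjusted p under 0.05. Of 11 genes of the Lgi family, its receptors and their partners, edgeR called 0 by genotype, with 6 in IP and 3 in Input at an unadjusted p under 0.05, and DESeq2 called 3 and 1. Dlg4, the postsynaptic scaffold PSD-95 and the most abundant of them, had 1318 ± 39.1 CPM in cKI IP libraries and 1403 ± 41.7 CPM in Control IP libraries (log2 fold change -0.09, SE 0.04, edgeR adjusted p = 0.218).

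Fear conditioning was the first comparison not used to choose the genes. In IP edgeR called 0 of the 10 at 1 h against naive mice, where 0.387% of all genes passed (0.269% higher and 0.118% lower). Unadjusted p was under 0.05 for 3 of the 10 and for 1985 of all 15238 genes. DESeq2 called 1 of the 10 there and 335 of all genes. In Input edgeR called 1 of 10, Lgi3, where 0.818% of all genes passed (0.389% higher and 0.429% lower). There 3 of the 10 had an unadjusted p under 0.05, as did 2099 of all 17232 genes. On the log2 scale Ifrd2 had 0.44 in IP (SE 0.14, edgeR adjusted p = 0.212) and Serpina3n of 0.21 in Input (SE 0.06, edgeR adjusted p = 0.184). Mospd3 had -0.17 in IP (SE 0.08, edgeR adjusted p = 0.358).

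Lgi3 fell in Input to 99.3 ± 2.90 CPM at 1 h, against 116 ± 11.4 CPM in naive mice (SD, n = 6 each), or -0.20 on the log2 scale (SE 0.04, edgeR adjusted p = 0.0175). In cKI inputs all 3 libraries at 1 h (101 CPM each) lay below all 3 naive ones (104 to 113 CPM), and in Control inputs the 3 at 1 h (93.9 to 101 CPM) lay below the 3 naive ones (116 to 135 CPM). The cKI inputs were all on 1 lane. In IP the log2 fold change was -0.16 (SE 0.05, edgeR adjusted p = 0.152), and by DESeq2 -0.17 (adjusted p = 0.0399). With lane as a covariate the call in Input was lost (log2 fold change -0.17, edgeR adjusted p = 0.234). It was also lost without any one of cKI naive replicate 1 (adjusted p = 0.0593), cKI replicates 1, 2 and 3 at 1 h (adjusted p = 0.0621, 0.0660 and 0.0622) and Control replicate 3 at 1 h (adjusted p = 0.0566), always by edgeR and with a log2 fold change between -0.19 and -0.20.

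Oligodendrocyte markers moved with Lgi3 in Input. Of the 8, 7 fell at 1 h (0.429% of all genes fell), among them Mbp, the myelin basic protein (log2 fold change -0.24, SE 0.05, edgeR adjusted p = 0.0225). Their summed level was 3490 to 3639 CPM at 1 h and 3670 to 4286 CPM in naive mice among cKI inputs, and 3915 to 4503 CPM at 1 h and 5202 to 5637 CPM in naive mice among Control inputs. By genotype 7 of the 8 also fell in cKI inputs (2% of all genes were lower). Their part in the Lgi3 value, or in the lower Mospd3, Sod3, Ret and Muc3a of cKI inputs, was not tested.

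Enrichment in the tagged fraction was the other comparison not used to choose the genes. Of the 10, 3 were higher and 5 lower in IP than in Input by edgeR, where 85.9% of all genes passed (42.8% higher and 43.1% lower). Serpina3n was higher in IP in 12 of 12 mice, with 101 ± 22.5 CPM in IP and 64.2 ± 13.6 CPM in Input (SD, n = 12 each), or 0.65 on the log2 scale (SE 0.06, edgeR adjusted p = 1.1e-09). The 8 astrocyte markers and the 12 other reactive astrocyte markers were all lower in IP, with medians of -3.21 and -3.04. Mospd3 was higher in IP in 11 of 12 mice (log2 fold change 0.41, SE 0.08, edgeR adjusted p = 0.00013), and Ret had 0.22 (SE 0.09, edgeR adjusted p = 0.0303). The Ret call was lost with DESeq2 size factors (0.15, edgeR adjusted p = 0.139) and without any one of 8 libraries.

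Sod3 was lower in IP in 12 of 12 mice, at 0.891 ± 0.469 CPM in IP and 6.44 ± 3.16 CPM in Input (SD, n = 12 each), or -2.76 on the log2 scale (SE 0.23, edgeR adjusted p = 6.06e-10). Muc3a was lower in 12 of 12 mice too (-1.17, SE 0.11, edgeR adjusted p = 9.15e-10). Vax1 had -0.87 (SE 0.27, edgeR adjusted p = 0.00454), Ighm -0.75 and Lgi3 -0.19 (SE 0.03, edgeR adjusted p = 7.22e-06). Ifrd2 had 0.03 (SE 0.10, edgeR adjusted p = 0.757) and Serpina3h -0.03 (SE 0.49, edgeR adjusted p = 0.958), and neither was called. With the mouse as a block, the Ighm value was -0.57 and was no longer called (edgeR adjusted p = 0.0916). Lane could not be separated well from fraction, since 12 IP libraries sat on lanes 5 and 6 and 12 Input libraries on lanes 4 and 5.

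**Figure D5:**
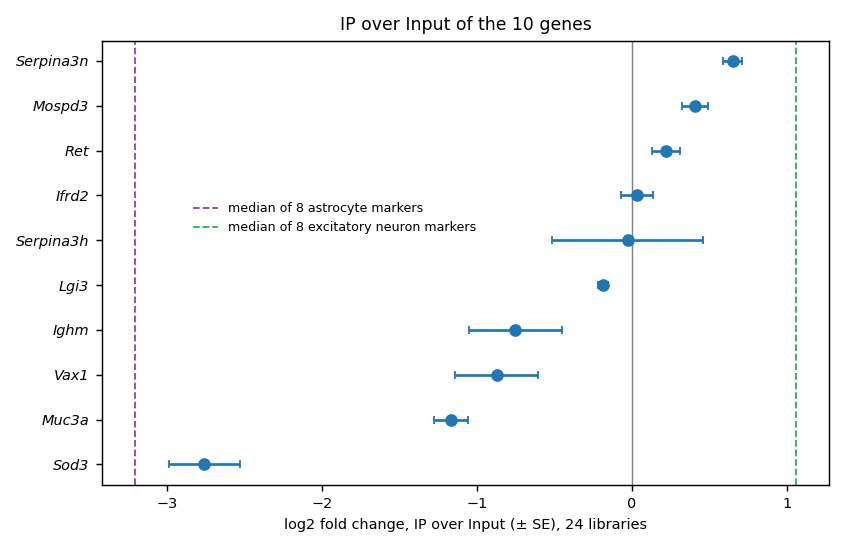
Log2 fold change of IP over Input with its standard error (horizontal axis) for the 10 genes over 24 libraries, with dashed lines at the medians of 8 astrocyte markers (-3.21) and 8 excitatory neuron markers (1.06). Sod3 (-2.76) lies nearest to the astrocyte line, and Serpina3n (0.65) lies on the side of the excitatory neuron line.

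Gene order was taken from RefSeq (GRCm38.p6) and served for order alone, because the build of the counts is not given in the sources used here. Muc3a and Mospd3 lie on chromosome 5 with 12 measured genes between them, and Sod3 is on the same chromosome. Serpina3h and Serpina3n are direct neighbours among the measured genes of chromosome 12, which also holds Ighm and Eif2s1, the locus of the knock-in. Of 555 measured genes on that chromosome, Eif2s1 is number 279 in order, Serpina3h 449, Serpina3n 450 and Ighm 539. Ret, Ifrd2, Lgi3 and Vax1 lie on chromosomes 6, 9, 14 and 19.

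Of the 5 nearest measured genes on each side of Mospd3, edgeR called 2 of the 7 tested in IP by genotype, where 1.69% of all genes were called, and 2 of the 10 tested in Input, where 3.15% were. In IP Pop7, a subunit of ribonuclease P, rose (log2 fold change 0.30, SE 0.07, edgeR adjusted p = 0.042) and Gigyf1, a translational repressor, fell (-0.30, SE 0.07, edgeR adjusted p = 0.0451). In Input Tfr2, the transferrin receptor 2, rose (0.44, SE 0.10, edgeR adjusted p = 0.0333) and Gm36266 fell (-1.45, SE 0.29, edgeR adjusted p = 0.0183). Of these, Gm36266 had 0.187 CPM in cKI inputs and 0.534 CPM in Control inputs on average. Neighbours thus moved in both directions.

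Beside Muc3a, Vgf, the precursor of a secreted neuropeptide, fell in Input (-0.34, SE 0.04, edgeR adjusted p = 0.000719), at 167 CPM in cKI mice and 216 CPM in Control mice. Beside Sod3, Ppargc1a, a coactivator of mitochondrial genes, fell in IP (-0.52, SE 0.08, edgeR adjusted p = 0.0126), and beside Vax1 Slc18a2, the vesicular monoamine transporter, fell in IP (-0.61, SE 0.13, edgeR adjusted p = 0.0442). Around Ifrd2, Ighm, Ret and Lgi3, edgeR called 0 neighbours in either fraction, and around the Serpina3 pair none but the pair itself. For these 4 genes 9, 6, 10 and 10 neighbours were tested in IP, and 10 of each in Input. Beside Ighm lie the immunoglobulin genes Igha, Ighg2c, Ighg2b, Ighd and Ighv3-6. Their Input log2 fold changes were 2.92, 3.24, 2.27, 0.79 and 7.67 (SE 1.24, 0.95, 1.16, 0.33 and 3.04). The other neighbours of Ighm had -0.09 to 0.55 in Input. In IP 0, 1, 2 and 3 of the neighbours of Ifrd2, Ighm, Ret and Lgi3 had an unadjusted p under 0.05, and in Input 0, 4, 3 and 2. DESeq2 called 2 neighbours of Ighm in Input and 0 of the others.

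Across the 12 Input libraries, the genes most like Mospd3 in log2 CPM were Agfg2 (Pearson r = 0.94), Ints1 (0.94) and Psph (0.93), and those most like Muc3a were Mospd3 itself (0.96), Ppp1r35 (0.93) and Psph (0.93). All of them lie on chromosome 5, which holds 6.32% of the measured genes. In IP the most like genes were Eif3c (0.94), Ints1 (0.93) and Evi5 (0.93) for Mospd3, and Slc1a4 (0.96), Mthfd2 (0.94) and Cab39 (0.94) for Muc3a, of which 2 of 3 for Mospd3 and 0 of 3 for Muc3a lie on chromosome 5. For Ifrd2 they were Arhgef4 in IP (0.94) and Irak1 in Input (0.92), for Ighm Klhl22 in IP (0.91) and Arl15 in Input (0.92), and for Serpina3n Rnf166 in IP (0.90) and Il17rd in Input (0.95). Lgi3 in Input was most like Papss1 (0.98). These coefficients describe 12 libraries that share genotype groups and lanes, out of 10651 genes in IP and 12057 in Input.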

How the data were processed

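The authors deposited raw counts per gene for 24 libraries, 1 Input and 1 IP from each of 12 mice. Per the labels' protocols, the libraries were directional, poly(A) selected and read as pairs. Cutadapt, Bowtie and DESeq2 appear in the submitters' processing notes with no role. Which tool counted, on which genome build and with which strand setting is not given in the sources used here. Genes that overlap or share sequence, such as the Serpina3 cluster, may therefore share reads. No sample column was left out. RefSeq names (GRCm38.p6) matched 47598 gene names (92%).

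The 10 genes, the companion lists and the marker lists were chosen with earlier results of these data known. Counts were fitted with edgeR 4.0.16 in R 4.3.3 (TMM scaling, filterByExpr, robust quasi-likelihood test, Benjamini-Hochberg adjustment over all genes tested, threshold 0.05), with 1 mean per group, separately for IP (15238 genes) and Input (17232 genes), and over all libraries for IP against Input (17453 genes). The same test was also run on simulated counts with 200 changed genes, after the main fits and with no lane difference simulated. Its outcome is not given here, and nothing is read from it. Log2 fold changes come from these fits and CPM from TMM factors over all 24 libraries. SD is the spread between mice, and SE belongs to the fitted log2 fold change. The p-values set a difference against the spread between libraries of the same group. Within a fraction these libraries are separate mice. The main fit of IP against Input took both libraries of a mouse as independent. Genotype p-values without a lane covariate do not separate genotype from lane. By genotype over both training states, an unadjusted p under 0.05 was found for 2823 of 15238 genes in IP and 3533 of 17232 in Input. Totals of 28.8 to 43.5 M counts make 3 counts a level of about 0.1 CPM.

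Genes named beside the 10 followed a rule: list genes called by genotype over both training states in either fraction, the most abundant other gene of each list, called neighbours among the 5 measured genes on each side, and the 3 genes with the highest Pearson r among genes whose mean log2 CPM is 2 or more. Igkc, Jchain, Igha, Ighg2c, Cd79a, Pax5, Blnk, Vpreb3, Ms4a1, Ifrd1, Mbp, Hspb1, Slc32a1 and Pvalb were added with their values known, and of the genes most alike a selection is printed. Other settings tried were no filter, size factors or the Wald test of DESeq2 1.42.0, a block for replicate number (within a fraction) or mouse (IP against Input), a lane covariate, single lanes, and each library left out. IP and Input of 1 mouse share the animal by the labels, and their deviations from the group means correlated at -0.21 to 0.53 over 12 mice.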

Additional observations from a re-analysis of the deposited data

Results flagged for a closer look

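Among 40 sets of 6 libraries (the 10 genes in each genotype and fraction), 3 held a library far from the others, and chance alone gives about 1 in 20. Ighm was at 57.0 CPM in Control Input replicate 3 at 1 h, while the other 5 Control inputs had 8.47 to 9.55 CPM. The same library also had the highest Igkc and Jchain of all inputs. Serpina3n was at 82.0 CPM in cKI IP naive replicate 1, against 117 to 134 CPM in the other cKI IP libraries, and this mouse was also the lowest cKI mouse for Serpina3n and Serpina3h in Input. Serpina3h was at 0.187 CPM, or 6 counts, in Control Input replicate 1 at 1 h, against 0 to 0.0555 CPM in the other Control inputs.

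The naive genotype difference of Lgi3 had opposite signs in the 2 fractions. All 3 cKI mice were above all 3 Control mice in IP (difference of mean log2 CPM 0.32), and all 3 were below them in Input (-0.20), a gap of 0.526 between the fractions. The difference between the fractions was not tested.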

How the results depend on the processing

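Over the alternative settings, 1022 of 1040 genotype values of the 10 genes moved by less than the spread between mice, 18 moved by more, and 0 called values changed sign. With lane as a covariate 10 moved by more and 50 by less. Without 1 library 7 moved by more and 713 by less, and with lane 6 alone 1 moved by more. Counts of called genes moved more. With the DESeq2 Wald test they were 1251 in naive IP (564 with edgeR), 47 in IP at 1 h (9), 779 in IP over both states (258), 335 for training in IP (59), 505 in naive Input (148), 158 in Input at 1 h (46), 951 in Input over both states (543) and 289 for training in Input (141). Without the filter they were 22 in IP at 1 h and 123 for training in IP. Replicate numbers do not pair mice across groups (correlation of deviations -0.41 to 0.62 within IP and -0.29 to 0.21 within Input; in IP the 3 pairs of cKI mice at 1 h and naive had 0.23 to 0.49, and the Control pairs had -0.41 to 0.41). With the replicate block the counts were 1018 in naive IP, 467 in IP over both states, 93 in naive Input, 17 in Input at 1 h, 292 in Input over both states and 87 for training in Input. Of the 10 genes the block called 1 lower in IP at 1 h (2 without it), 2 lower in naive Input (4) and 2 higher in Input over both states (3), and it changed no other count of these. With lane as a covariate they were 1 in naive IP, 5 in IP at 1 h, 3 in IP over both states, 2 for training in IP, 1 in Input at 1 h, 18 in Input over both states, 19 for training in Input and 9763 for IP against Input (14996), and lane 4 alone gave 92 in naive Input. Leaving out 1 library at a time gave 22 to 933 in naive IP, 3 to 12 in IP at 1 h, 52 to 395 in IP over both states, 18 to 82 for training in IP, 52 to 143 in naive Input, 3 to 207 in Input at 1 h, 164 to 741 in Input over both states, 44 to 176 for training in Input and 15042 to 15168 for IP against Input. The cause was not tested.

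Some values that were not called changed sign. With lane as a covariate, 1 h against naive was 0.0044 for Sod3 in IP and -0.012 for Ret in Input, where leaving out single libraries gave -0.039 to 0.086. IP against Input for Ifrd2 was -0.035 with DESeq2 size factors, -0.036 with the Wald test and -0.027 to 0.098 without single libraries, and for Serpina3h -0.97 to 0.32. IP against Input for Ighm was no longer called without the filter (edgeR adjusted p = 0.0506) and without cKI naive Input replicate 1, cKI Input replicate 2 at 1 h or Control Input replicate 3 at 1 h (0.0534 to 0.0805). With lane as a covariate Mospd3, Sod3, Vax1, Ret and Lgi3 lost that call too, and Ret also without any one of 8 libraries (edgeR adjusted p 0.0502 to 0.139), which were cKI naive IP replicate 2, cKI IP replicate 1 at 1 h, cKI naive Input replicate 3, Control naive replicate 2 in either fraction, Control IP replicates 1 and 3 at 1 h and Control Input replicate 2 at 1 h. With the mouse as replicate block, the calls of the other 7 genes were kept. Vax1 and Serpina3h rest on fewer than 30 counts per library. Muc3a in cKI IP was also low, with 31 counts over the 3 naive libraries and 49 over the 3 at 1 h. Sod3 in IP went down to 3 counts, in cKI replicate 2 at 1 h. In naive IP Serpina3h was 2.22 with all libraries and 5.91 without Control replicate 2, and Vax1 was -3.16 with all and -3.89 without cKI replicate 1. Ighm in Input at 1 h was 0.28 with all and 1.79 without Control replicate 3, and Sod3 in IP at 1 h was -0.51 with all and -1.82 without cKI replicate 1.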
